A study of Mus musculus with 16 samples.

Results

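Acute-phase protein genes code for plasma proteins that the liver releases in inflammation. The 10 genes described here, Saa1, Saa2, Saa3, Saa4, Orm1, Orm2, Hp, Lcn2, Crp and Apcs, were chosen by name from the 21959 genes listed for every mouse. They were followed over 4 treatment groups and beside Alb, the albumin gene of hepatocytes. RNA of liver metastases was sequenced from 16 mice, 4 in each group. All were male wild-type C57BL/6 mice that received MC38 cells, a mouse colon adenocarcinoma line, through the spleen at 6 weeks of age. The control mice had PBS. The SB525334 group had this inhibitor of the type I TGF-β receptor (ALK5) by mouth every day at 20 mg/kg. The KN046 group had this bispecific antibody against PD-L1 and CTLA-4 at 10 mg/kg, 2 injections a week, and the combination group had both agents. MC38 is 1 line, only males were used, and the sources do not state how much adjoining liver each tumor piece held.

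Interleukin-6 and interleukin-1 are the main signals of the acute-phase response. They act on hepatocytes through STAT3, NF-κB and C/EBP factors, and the hepatocyte then makes more serum amyloid A, orosomucoid, haptoglobin and pentraxins, and less albumin and transthyretin. Several of these genes are also read outside the hepatocyte. Saa3 is made by macrophages, fat and stroma, and Lcn2 by neutrophils and stressed epithelium.

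In these tumors most of the acute-phase genes fell in the same groups as the hepatocyte markers. With SB525334, 7 of the 10 were lower than in the control group, where 9.22% of all tested genes were, with fitted log2 fold changes of -3.88 to -2.84. With the combination 9 of the 10 were lower, against 9.74% of all genes, and 5 of those were left with 1 to 3 reads over all 4 mice. KN046 alone lowered 1 gene, Orm2, against 2.4% of all genes. Saa3 passed the test in no comparison, and Lcn2 kept more reads in 1 mouse of the combination than in the other 3. Here and below, a gene is called lower or higher where its adjusted p was under 0.05 in edgeR's quasi-likelihood test over 13968 genes, and a level is given in CPM, the read count scaled to library size, here with TMM factors.

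The libraries held 18368994 to 23877131 counts per mouse. Control mice 1 and 2 were much alike, as were control mice 3 and 4, with a median chi-square over genes of 1.25 for the former pair and 0.956 for the latter. In the other 22 pairs of mice within a group it was 2.82 or more. The SD of a control value below therefore describes 2 pairs of very similar samples. The 15 hepatocyte markers, Alb among them, summed to 16580 to 20210 CPM in the control mice, 653 to 2335 with SB525334, 10590 to 21340 with KN046 and 71.9 to 92.9 with the combination. Markers of some other cells were lower in the same groups, and those of others were not. The 7 macrophage markers summed to 897 to 962 CPM in control mice, 817 to 1250 with SB525334 and 889 to 1014 with the combination. None of them and none of the 6 T cell markers was called lower with SB525334 or with the combination. With KN046 the macrophage markers summed to 538.5 to 1062 CPM, none called lower, and 5 of the 6 T cell markers were called lower (2.4% of all genes). The 5 Kupffer cell markers summed to 162 to 331 CPM in control mice, 9.56 to 24.3 with SB525334 and 1.47 to 12.4 with the combination. The 8 epithelial tumor cell markers summed to 150 to 249, 37.4 to 51.0 and 6.77 to 16.4 CPM in these groups. Krt8 and Krt18 made up most of the control sums, at 54.3 to 111 and 59.5 to 116 CPM, and neither passed 0.883 CPM with the combination. The fall of the sums was thus mostly theirs and does not measure the amount of tumor cells. Krt19 had 2.08 to 4.855 CPM in the control mice and 1.09 to 3.035 with the combination, and Cdh1 13.7 to 25.7 and 5.19 to 12.2. Of the 7 of these markers tested, 5 were called lower with the combination (9.74% of all genes). Krt20 had 4 counts in control mouse 2, 2 in KN046 mouse 2 and 0 in every other mouse. The part of any of these cells in the results was not tested. Fewer hepatocytes and less of these RNAs per hepatocyte cannot be told apart in bulk tissue.

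Per kilobase of transcript, the control tumors held most Hp, with 1155 ± 388 CPM per kb (SD, n = 4 mice here and below). Orm1 followed with 255 ± 90.7 CPM per kb, then Lcn2 with 162 ± 58.9 and Orm2 with 132 ± 31.3. Hp lay above Orm1 in every control mouse, while the ranges of Orm1, Lcn2 and Orm2 overlapped from each to the next. A second tier held Saa1 (36.8 ± 12.9 CPM per kb), Apcs (30.6 ± 9.24) and Saa2 (27.7 ± 8.64), whose ranges overlapped, with Crp at 19.4 ± 1.93 overlapping Saa2. Saa4 at 12.5 ± 0.805 CPM per kb and Saa3 at 5.48 ± 0.645 lay below all of these and apart from each other. Alb had 4011 ± 131 CPM per kb. With the combination the means ran in another order. Lcn2 (6.42 ± 10.8 CPM per kb), Saa3 (3.90 ± 6.30) and Hp (3.61 ± 2.11) led with overlapping ranges. Orm1 came next at 0.391 ± 0.135, and its range overlapped those of Lcn2 and Saa3. The Lcn2 mean rested on mouse 4 (20.65 CPM) and the Saa3 mean on mouse 2 (13.4 CPM). By median CPM, Hp was highest (4.19), before Lcn2 (1.26) and Saa3 (1.10).

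**Figure D1:**
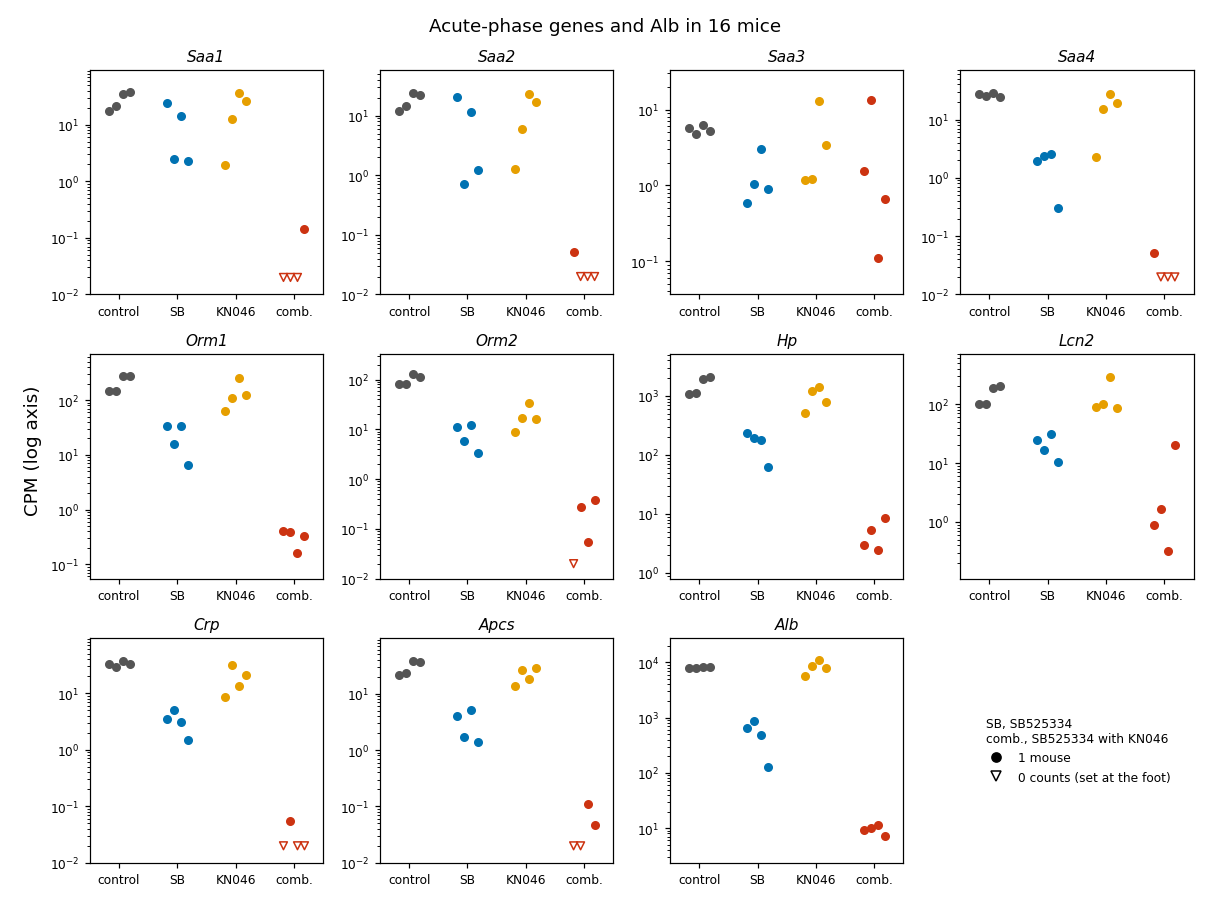
Level of each acute-phase gene and of Alb in each of the 16 mice, in CPM on a log axis, with 1 panel per gene and open triangles for mice with 0 counts. Points of the combination lie below all control points in every panel except that of Saa3.

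The serum amyloid A genes lie together on chromosome 7 of GRCm39: Saa3 (ENSMUSG00000040026) at chr7:46361422-46365576, Saa4 (ENSMUSG00000040017) at chr7:46377406-46382035, Saa1 (ENSMUSG00000074115) at chr7:46389916-46392547 and Saa2 (ENSMUSG00000057465) at chr7:46401214-46403737, with Saa2 alone on the plus strand. Saa1 and Saa2 code for the acute-phase apolipoproteins of high-density lipoprotein, and Saa4 for a form that is made constitutively. The bases before the start sites of Saa1 (chr7:46392405-46392624, minus strand), Saa2 (chr7:46401037-46401256, plus strand) and Saa3 (chr7:46365101-46365320, minus strand) are shown because the first pair moved together and the third apart from them. Capitals mark a C/EBP motif, TTGCNNAA on either strand, and in Saa1 an NF-κB motif, GGNNNTTTC. The sequences are from RefSeq's promoter table (GRCm38.p6), and the coordinates from an exact match to GRCm39. Start sites here and below are RefSeq's and can differ from the gene bounds given. The bases of Saa3 and, below, Lcn2 lie inside those bounds, and those of Saa1, Saa2 and Crp in part.
Saa1: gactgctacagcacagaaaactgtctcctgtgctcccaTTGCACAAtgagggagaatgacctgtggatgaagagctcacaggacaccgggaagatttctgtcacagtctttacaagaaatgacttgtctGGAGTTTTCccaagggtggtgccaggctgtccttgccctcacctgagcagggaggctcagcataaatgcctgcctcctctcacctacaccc
Saa2: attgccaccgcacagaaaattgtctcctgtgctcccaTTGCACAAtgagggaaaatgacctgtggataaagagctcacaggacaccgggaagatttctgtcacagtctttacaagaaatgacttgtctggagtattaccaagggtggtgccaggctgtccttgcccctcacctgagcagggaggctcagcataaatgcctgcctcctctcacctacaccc
Saa3: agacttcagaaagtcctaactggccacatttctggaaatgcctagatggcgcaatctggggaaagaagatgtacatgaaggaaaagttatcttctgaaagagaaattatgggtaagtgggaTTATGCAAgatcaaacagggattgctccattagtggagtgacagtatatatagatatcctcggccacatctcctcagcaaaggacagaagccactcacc

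Over the 250 bases before the start, Saa1 and Saa2 were 94.8% identical in a global alignment, with 238 identical bases, 11 mismatches and 2 gap positions. Both hold the C/EBP letters, 182 and 183 bases before the start. The NF-κB letters were matched only in Saa1, 91 bases before the start. In all 27025 promoters of the table, 9.55% held the C/EBP letters within 250 bases and 13% the NF-κB letters. The 8 acute-phase genes in that table were Saa1, Saa2, Saa3, Saa4, Orm2, Lcn2, Crp and Apcs, and 6 of them held the C/EBP letters. The transcripts of Saa1 and Saa2 share 7.20% of the 50-base windows of Saa1, so reads from those windows cannot be assigned with certainty. A lncRNA gene that is not listed in the files, Gm74180, also overlaps both.

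Saa1 had 17.8, 21.25, 35.1 and 37.4 CPM in control mice 1 to 4, and 24.4, 2.47, 14.3 and 2.24 with SB525334. With KN046 it had 1.97, 12.45, 36.9 and 26.45 CPM. With the combination it had 0, 0, 0 and 0.141 CPM, or 3 counts in all. SB525334 mouse 1 thus lay within the control range, mouse 3 a little under it and mice 2 and 4 far under it, and the KN046 mice ran from far under the control range nearly to its top, while the combination mice lay apart below every other mouse. Saa1 was not called with SB525334 (log2 fold change -1.36, standard error 0.70, adjusted p = 0.315) or with KN046 (-0.52, standard error 0.69, adjusted p = 0.685). Against the combination, the control level was 702 times as high, with a 95% interval of 240 to 3408 from the counts alone, and Saa1 was called lower (adjusted p = 3.64e-05).

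Saa2 followed Saa1 mouse by mouse. Its level was 11.98 to 23.5 CPM in the control mice, 0.717 to 20.9 with SB525334 and 1.28 to 23.0 with KN046, and 1 count in the whole combination group. The lower SB525334 mice were again mice 2 and 4, and the lowest KN046 mouse was again mouse 1. Over the 16 mice, log2(CPM + 1) of Saa1 and Saa2 had a Pearson r of 0.991, and of 0.983 after the group means were taken out, a description of mice that share libraries, groups and shared windows. Saa2 was not called with SB525334 (log2 fold change -1.08, standard error 0.78, adjusted p = 0.527) and was called lower in the combination group (adjusted p = 1.61e-04, control level 1371 times as high, 95% counting interval 246 to 54170).

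Saa3 was the exception of the family. It had 5.69, 4.83, 6.34 and 5.23 CPM in the control mice and 0.588, 1.03, 3.06 and 0.905 with SB525334. With KN046 the values were 1.17, 1.22, 13.1 and 3.43 CPM, and with the combination 1.54, 13.4, 0.109 and 0.66. Every SB525334 mouse lay below every control mouse, but KN046 mouse 3 and combination mouse 2 lay above the control range and the others of their groups below it. No comparison passed the test. The log2 fold change of Saa3 against control was -1.98 for SB525334 (standard error 0.97, adjusted p = 0.285), -0.23 for KN046 (0.91, adjusted p = 0.906) and -0.50 for the combination (0.92, adjusted p = 0.793). Fitted on these 8 mice alone, SB525334 was called (-1.97, adjusted p = 0.0101). Without combination mouse 2, Saa3 was called lower in the combination than with KN046 (log2 fold change -2.58, adjusted p = 0.0498), against -0.27 (adjusted p = 0.855) with that mouse, and without KN046 mouse 3 the value turned to 1.02.

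Saa4 had 24.8 to 28.5 CPM in the control mice, a narrow range. Its level was 0.302 to 2.54 CPM with SB525334, below every control mouse, and 2.24 to 27.2 with KN046, where the mice overlapped the control group. A single count was found in the combination group. Saa4 was called lower with SB525334 (log2 fold change -3.88, standard error 0.57, adjusted p = 8.33e-05). It was also called lower in the combination (adjusted p = 3.61e-07), the control level being 2051 times that of the combination (95% counting interval 368 to 81050). Its neighbours Saa1 and Saa2 had log2 fold changes of -1.36 and -1.08 with SB525334, and the difference between genes was not tested.

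The orosomucoid genes, Orm1 (ENSMUSG00000039196) at chr4:63261052-63272189 and Orm2 (ENSMUSG00000061540) at chr4:63280686-63284115, code for α1-acid glycoprotein, a lipocalin that binds drugs and lipids in plasma. They differed in their response to KN046, so the bases before Orm2 (chr4:63280466-63280685, plus strand) are shown, with the C/EBP letters 120 bases and the TATA letters (TATAAA, in 13% of all promoters) 33 bases before the start in capitals.
Orm2: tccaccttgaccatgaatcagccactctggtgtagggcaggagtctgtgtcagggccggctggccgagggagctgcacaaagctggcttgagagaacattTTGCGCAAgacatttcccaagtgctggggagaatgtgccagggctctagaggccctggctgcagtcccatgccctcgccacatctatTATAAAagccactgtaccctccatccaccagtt

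Orm1 had 147.5, 144.5, 272 and 279 CPM in the control mice and 33.95, 15.6, 33.4 and 6.63 with SB525334. It had 63.9, 108.3, 248 and 124 CPM with KN046, and 0.411, 0.386, 0.164 and 0.33 with the combination. The SB525334 mice all lay below the control mice, the KN046 mice overlapped them, and the combination mice lay below the other 12. Orm1 was 9.42-fold lower with SB525334 (log2 fold change -3.23, standard error 0.45, adjusted p = 5.28e-05) and 638-fold lower with the combination (-9.32, standard error 0.69, adjusted p = 1.19e-08), and was not called with KN046 (-0.63, standard error 0.41, adjusted p = 0.375).

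Orm2 had 82.5, 82.0, 131 and 115 CPM in the control mice and 8.69, 17.2, 33.8 and 16.2 with KN046. All 4 KN046 mice lay below all 4 control mice. Orm2 was 5.41-fold lower with KN046 (log2 fold change -2.44, standard error 0.39, adjusted p = 0.0113), the only acute-phase gene of the 10 that was called with this agent. With SB525334 it had 10.98, 5.77, 12.2 and 3.40 CPM and was 12.7-fold lower (log2 fold change -3.67, adjusted p = 6.07e-06). With the combination it had 0, 0.276, 0.0546 and 0.377 CPM, 14 counts in all, and was 548-fold lower than in the control group (log2 fold change -9.10, adjusted p = 5.74e-09), or -9.81 on the log2 scale without combination mouse 4. When the similar control mice were merged into 2 samples, the KN046 call of Orm2 was lost at the same fold change (adjusted p = 0.114).

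The ratio of the 2 orosomucoid genes, which is made of the same counts, was lowest in the KN046 mice outside the combination group. Orm2 counts were 56.0, 56.8, 48.0 and 41.2% of the Orm1 counts in the control mice and 32.4, 37.1, 36.4 and 51.3% with SB525334. With KN046 they were 13.6, 15.9, 13.6 and 13.1%. The 4 KN046 mice were close together and below all control and SB525334 mice, with no test made on the ratio, since it was looked at after the calls were known. In the combination, where both genes were near 0, the ratio ran from 0 to 114%. Orm1 and Orm2 share 19.1% of the 50-base and 6.47% of the 100-base windows of Orm1, so part of their reads may be split between them or dropped in every group. The files do not list the lncRNA gene Gm52743 and the pseudogene Gm11212, which overlap Orm1. Saa2, the other close paralog, was 59.3 to 69.04% of Saa1 in the control group, 29.0 to 85.7% with SB525334 and 48.4 to 65.0% with KN046, all overlapping.

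**Figure D2:**
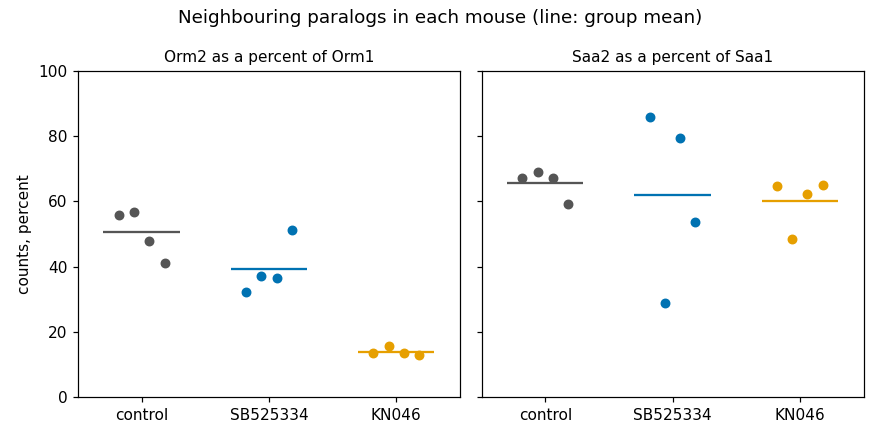
Counts of Orm2 as a percent of Orm1 (left) and of Saa2 as a percent of Saa1 (right) in each mouse of the control, SB525334 and KN046 groups, with a line at the group mean. The KN046 mice lie at 13.1 to 15.9% for Orm2, below all other mice drawn, and overlap the control mice for Saa2.

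Hp (ENSMUSG00000031722, chr8:110301759-110305804) codes for haptoglobin, which binds free hemoglobin. It had 1089, 1117, 1952 and 2059 CPM in the control mice and 232, 193, 177 and 61.2 with SB525334. With KN046 it had 518, 1205, 1390 and 802 CPM, and with the combination 3.03, 5.35, 2.40 and 8.67. The SB525334 and combination mice lay below all control mice, and combination mouse 4 was the highest of its group. Hp was 9.39-fold lower with SB525334 (log2 fold change -3.23, standard error 0.43, adjusted p = 2.94e-05) and 317-fold lower with the combination (-8.31, standard error 0.55, adjusted p = 3.78e-09), and was not called with KN046 (-0.67, standard error 0.40, adjusted p = 0.321).

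Lcn2 (ENSMUSG00000026822, chr2:32274645-32278264) codes for lipocalin 2, which withholds iron from bacteria by binding their siderophores. Its upstream bases (chr2:32277752-32277971, minus strand) carry the C/EBP letters 216 bases before the RefSeq start, in capitals. They are shown because Lcn2 departed from the hepatocyte genes in the combination.
Lcn2: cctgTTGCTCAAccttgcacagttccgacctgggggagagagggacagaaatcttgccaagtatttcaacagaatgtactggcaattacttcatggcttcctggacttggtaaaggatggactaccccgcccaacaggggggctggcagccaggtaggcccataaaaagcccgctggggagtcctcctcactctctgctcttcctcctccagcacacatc

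Lcn2 had 102.2, 101.7, 189 and 201 CPM in the control mice and 24.6, 16.6, 31.4 and 10.3 with SB525334. The KN046 mice had 91.2, 98.9, 285.5 and 85.3 CPM, and the combination mice 0.873, 1.65, 0.328 and 20.65. Combination mouse 4 held 438 of the 491 Lcn2 counts of its group and lay within the SB525334 range, while the other 3 lay far below it. Lcn2 was 7.16-fold lower with SB525334 (log2 fold change -2.84, standard error 0.74, adjusted p = 0.0163) and 24.7-fold lower with the combination (-4.62, standard error 0.82, adjusted p = 4.65e-04). Without combination mouse 4 the latter log2 fold change was -7.27. The call with SB525334 was lost without SB525334 mouse 2 (adjusted p = 0.0587) or mouse 4 (adjusted p = 0.0582) and with the control pairs merged (adjusted p = 0.0633). KN046 mouse 3 was the highest of all 16, and KN046 gave no call (-0.08, standard error 0.68, adjusted p = 0.956).

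Markers of another cell type moved with Lcn2 in combination mouse 4. The 12 neutrophil markers summed to 287 CPM there and to 6.50 to 24.4 CPM in the other 3 combination mice. They summed to 225 to 242 CPM in the control group, 9.49 to 20.6 with SB525334, where Ly6g was at 0, and 18.4 to 30.9 with KN046. The KN046 mice thus held 85.3 to 285.5 CPM of Lcn2 at neutrophil marker sums far under those of the control mice, and combination mouse 4 had a marker sum above the control range at an Lcn2 level below every control mouse. Its 438 Lcn2 counts stood beside 1725 of S100a9, 1658 of Ngp and 584 of Ltf, which are granule and cytosol proteins of neutrophils. The part of neutrophil RNA in the Lcn2 values was not tested. Without this mouse Lcn2 was also called lower in the combination than with SB525334 (log2 fold change -4.44, adjusted p = 4.22e-04), against -1.79 (adjusted p = 0.409) with it.

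**Figure D3:**
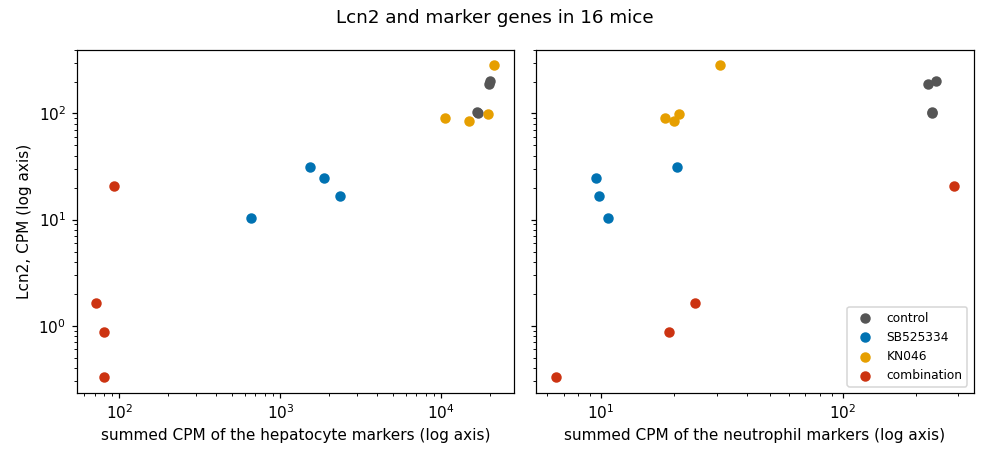
Lcn2 level in CPM against the summed CPM of the 15 hepatocyte markers (left) and of the 12 neutrophil markers (right), each point 1 mouse and all axes logarithmic. Combination mouse 4, at 20.65 CPM of Lcn2, lies far to the right of the other 3 combination mice for the neutrophil markers (287 against 6.50 to 24.4 CPM) and near them for the hepatocyte markers.

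The pentraxins Crp (ENSMUSG00000037942, chr1:172525614-172660598) and Apcs (ENSMUSG00000026542, chr1:172721528-172722611) code for C-reactive protein and serum amyloid P, pattern-binding plasma proteins that activate complement. In the mouse, serum amyloid P is the strong acute-phase pentraxin and C-reactive protein responds weakly. The bases before Crp (chr1:172525403-172525622, plus strand) are shown as those of a member in which the C/EBP letters were not found, with the TATA letters 31 bases before the start in capitals. Apcs held the STAT letters TTCNNNGAA, found in 7.18% of promoters, 244 bases before its start, the only match among the 8 genes. The HNF4 letters CAAAGTCCA (0.381% of promoters) were matched in none of the 8.
Crp: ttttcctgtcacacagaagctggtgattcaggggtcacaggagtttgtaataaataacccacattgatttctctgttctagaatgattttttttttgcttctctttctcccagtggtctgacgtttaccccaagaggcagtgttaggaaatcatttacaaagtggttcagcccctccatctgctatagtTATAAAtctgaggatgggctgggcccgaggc

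Crp had 33.2, 29.4, 37.5 and 33.0 CPM in the control mice and 3.53, 5.06, 3.06 and 1.51 with SB525334. The KN046 mice had 8.58, 31.4, 13.4 and 21.0 CPM, and the combination group 1 count, in mouse 2. The SB525334 mice lay below all control mice, and 1 of the 4 KN046 mice reached into the control range. Crp was 10.1-fold lower with SB525334 (log2 fold change -3.34, standard error 0.37, adjusted p = 4.20e-06), and its control level was 2563 times that of the combination (95% counting interval 460 to 101300, adjusted p = 2.50e-09). With KN046 the log2 fold change was -0.84 (standard error 0.33, adjusted p = 0.142), and it was called lower once KN046 mouse 2 was left out (-1.21, adjusted p = 0.0205). The pseudogene Gm38051, not listed in the files, overlaps Crp.

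Apcs had 21.2 to 38.6 CPM in the control mice, 1.378 to 5.08 with SB525334, 13.6 to 28.1 with KN046 and 3 counts in the combination group. Its SB525334 mice lay below the control mice and its KN046 mice overlapped them. Apcs was 9.82-fold lower with SB525334 (log2 fold change -3.30, standard error 0.38, adjusted p = 6.55e-06) and was called lower with the combination (adjusted p = 5.26e-09), the control level being 754 times as high (95% counting interval 258 to 3660).

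None of the 10 genes was called higher with SB525334, KN046 or the combination, where 0.394%, 1.6% and 1.37% of all genes were, and 0 had a higher level at an unadjusted p under 0.05, in edgeR or in DESeq2. The median log2 fold change of the 10 was -3.23 for SB525334, -0.62 for KN046 and -9.30 for the combination, beside 0, -0.03 and 0.01 for all genes. Mice did not overlap, with the treated group lower, for 8 genes with SB525334 (13.3% of all genes), 1 with KN046 (6.65%) and 9 with the combination (12.1%). These 3 comparisons share the same 4 control mice. All 10 genes passed the filter on low counts, though Hp alone had 10 or more counts in every mouse. For the 5 genes with 1 to 3 counts in the combination, the fitted fold change depends on the prior count and sets no bound, and it moved by over 1.5 times when the mouse with most of these counts was left out (mouse 4 for Saa1, 1 for Saa2 and Saa4, 2 for Crp and 3 for Apcs).

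**Figure D4:**
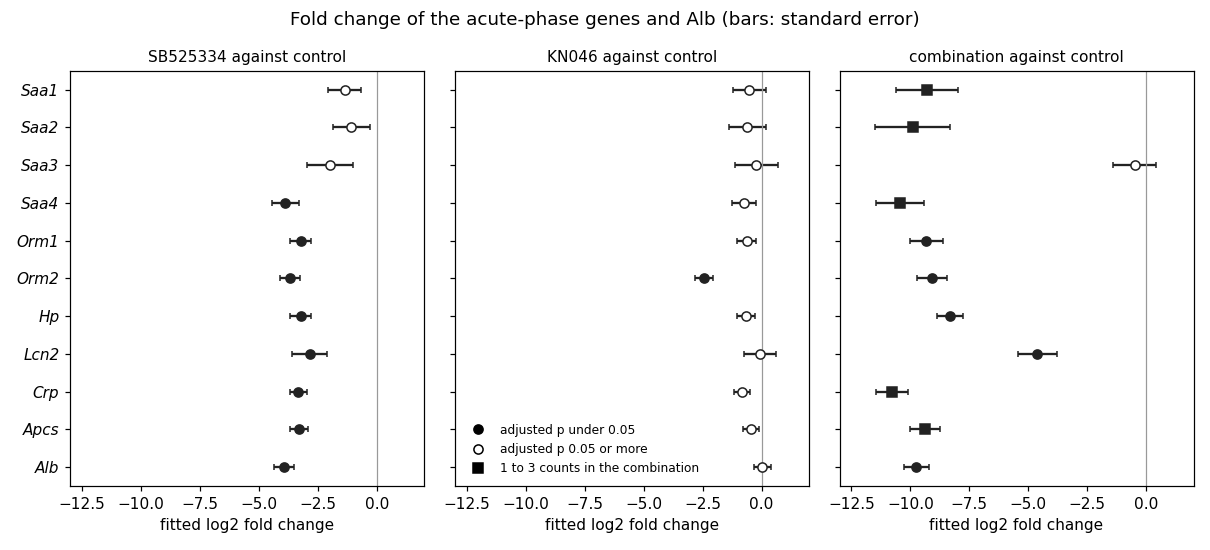
Fitted log2 fold change of each acute-phase gene and of Alb against the control group for SB525334, KN046 and the combination, with bars for the standard error, filled symbols for an adjusted p under 0.05 and squares for genes with 1 to 3 counts in the combination. Orm2 is the only filled symbol for KN046, at -2.44, and Saa3 the only open one for the combination, at -0.50.

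The combination was also set against each agent alone. Against KN046, 9 of the 10 genes were called lower in the combination (14.5% of all genes), with a median log2 fold change of -8.72, and against SB525334 8 of 10 (3.03%), with a median of -6.08. None was called higher in these (9.89% and 0.544% of all genes) or, below, in the interaction (1.73%), and 0 were higher at an unadjusted p under 0.05 in edgeR or DESeq2. Saa3 was not called in either, and Lcn2 only against KN046 (-4.54, standard error 0.82, adjusted p = 5.70e-04), with -7.18 without combination mouse 4 and -3.92 without KN046 mouse 3. The mice did not overlap for 9 genes against KN046 (12.4% of all genes) and for 8 against SB525334 (4.62%). Among genes with enough counts for a fold, Hp was 200-fold lower than with KN046 and 33.8-fold lower than with SB525334, and Orm1 412-fold and 67.8-fold lower.

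The interaction asks whether the log2 effect of SB525334 differed between mice with and without KN046. It was called negative for 7 of the 10 genes, meaning a larger decline where KN046 was given, against 2.55% of all genes. For Hp it was -4.41 (standard error 0.60, adjusted p = 2.53e-04), for Orm1 -5.45 (0.83, adjusted p = 7.33e-04) and for Apcs -5.62 (0.86, adjusted p = 7.51e-04). Crp, Saa1, Saa2 and Saa4 were also called, with adjusted p between 5.51e-04 and 0.0314. Orm2 missed the threshold (-3.00, standard error 0.84, adjusted p = 0.0522) but passed in DESeq2 (adjusted p = 0.00635), with DESeq2 size factors (0.0492) and without a filter (0.0418), and Saa3 (1.71, adjusted p = 0.555) and Lcn2 (-1.70, adjusted p = 0.428) did not pass. With the similar control mice merged 4 genes were called, and the share of all genes called in that fit is not given here. Saa2 lost its call without any 1 of the combination mice (adjusted p up to 0.0724), and Saa4 without any 1 of them, SB525334 mouse 1, 2 or 3, or KN046 mouse 3 (up to 0.0947), and with the replicate block (-5.63, adjusted p = 0.0529). Orm2 was called without SB525334 mouse 4 or KN046 mouse 1 or 2 (adjusted p from 0.0181 to 0.0479). Without combination mouse 4 Lcn2 was called too (-4.36, adjusted p = 0.00343). Alb itself had an interaction of -5.84 (standard error 0.55, adjusted p = 6.01e-06).

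Alb is the yardstick used here for how much of this went with hepatocyte RNA. It is itself a negative acute-phase gene. A ratio to Alb therefore cannot tell more of a gene from less Alb per hepatocyte, and this was not tested. It had 7843, 8102, 8383 and 8414 CPM in the control mice and 650, 874, 487 and 129 with SB525334. With KN046 it had 5742, 8551, 11060 and 8016 CPM, and with the combination 9.35, 10.1, 11.6 and 7.07. The log2 fold change of Alb against control was -3.94 for SB525334 (adjusted p = 2.22e-06), 0.03 for KN046 (adjusted p = 0.972) and -9.75 for the combination (adjusted p = 4.72e-10). In a second fit, the Alb count of each mouse took the place of its library size, so that a gene that fell less than Alb has a positive value. On that scale 95.7% of all genes were called higher with SB525334 and 97.4% with the combination, and the median gene had log2 values of 4.66 and 9.80. The acute-phase genes lay far nearer to Alb, with medians of 0.95 and 0.40, and 4 of 10 and 3 of 10 were called higher. With Alb as the reference none was called lower (0.158% and 0.0143% of all genes). With the summed counts of the other 14 hepatocyte genes as the reference, 8 of the 10 were called lower in the combination group and 2 higher. That sum was mostly Trf in the combination mice. The share of all genes called in that fit is not given here, so its counts cannot be set against one.

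With SB525334 the 4 genes called higher relative to Alb were Saa1, Saa2, Saa3 and Lcn2, of which only Lcn2 was itself called lower in level. Saa1 had 2.27, 2.62, 4.19 and 4.44 counts per 1000 Alb counts in the control mice and 37.6, 2.82, 29.3 and 17.4 with SB525334. Saa2 had 1.53, 1.81, 2.81 and 2.63 in the control mice and 32.2, 0.82, 23.3 and 9.36 with SB525334. Saa2 of SB525334 mouse 2 thus lay below every control mouse, and the other 3 above. Saa3 had 0.725, 0.596, 0.756 and 0.621, and 0.904, 1.18, 6.27 and 7.02. Lcn2 had 13.0, 12.55, 22.5 and 23.9, and 37.8, 19.0, 64.5 and 80.2. The groups did not overlap for Saa3, as for 94.9% of all genes, and for Saa1 and Lcn2 SB525334 mouse 2 lay within the control range. The fitted log2 values relative to Alb were 2.69 for Saa1 (standard error 0.63, adjusted p = 2.44e-05), 2.91 for Saa2 (0.65, adjusted p = 7.38e-06), 2.44 for Saa3 (0.61, adjusted p = 7.23e-05) and 1.48 for Lcn2 (0.56, adjusted p = 0.00826). In the two-sided exact permutation test on the ratio per mouse, whose smallest p with 4 against 4 mice is 0.0286, Saa3 reached 0.0286, Saa1 and Lcn2 0.0857 and Saa2 0.143. That test takes the control mice as separate samples, although they form 2 similar pairs, and it was not repeated with the pairs merged. Its p-values, here and below, may therefore be too small. Saa4, at 2.34 to 5.21 per 1000 Alb counts with SB525334 and 2.94 to 3.50 in the control group, moved with Alb (0.05, standard error 0.63, adjusted p = 0.942). Of the other 5 genes, Crp had higher ratios in all 4 SB525334 mice (5.43 to 11.7, against 3.63 to 4.48 in the control group, exact permutation p = 0.0286), although the fit did not call it (0.82, adjusted p = 0.192). Lcn2 lost its call with the control pairs merged or with another reference in place of Alb. Without SB525334 mouse 2 or mouse 4, Orm1 (1.17 and 0.85) and Hp (1.08 and 0.73) were called higher too, and Apcs without mouse 2 (1.32).

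**Figure D5:**
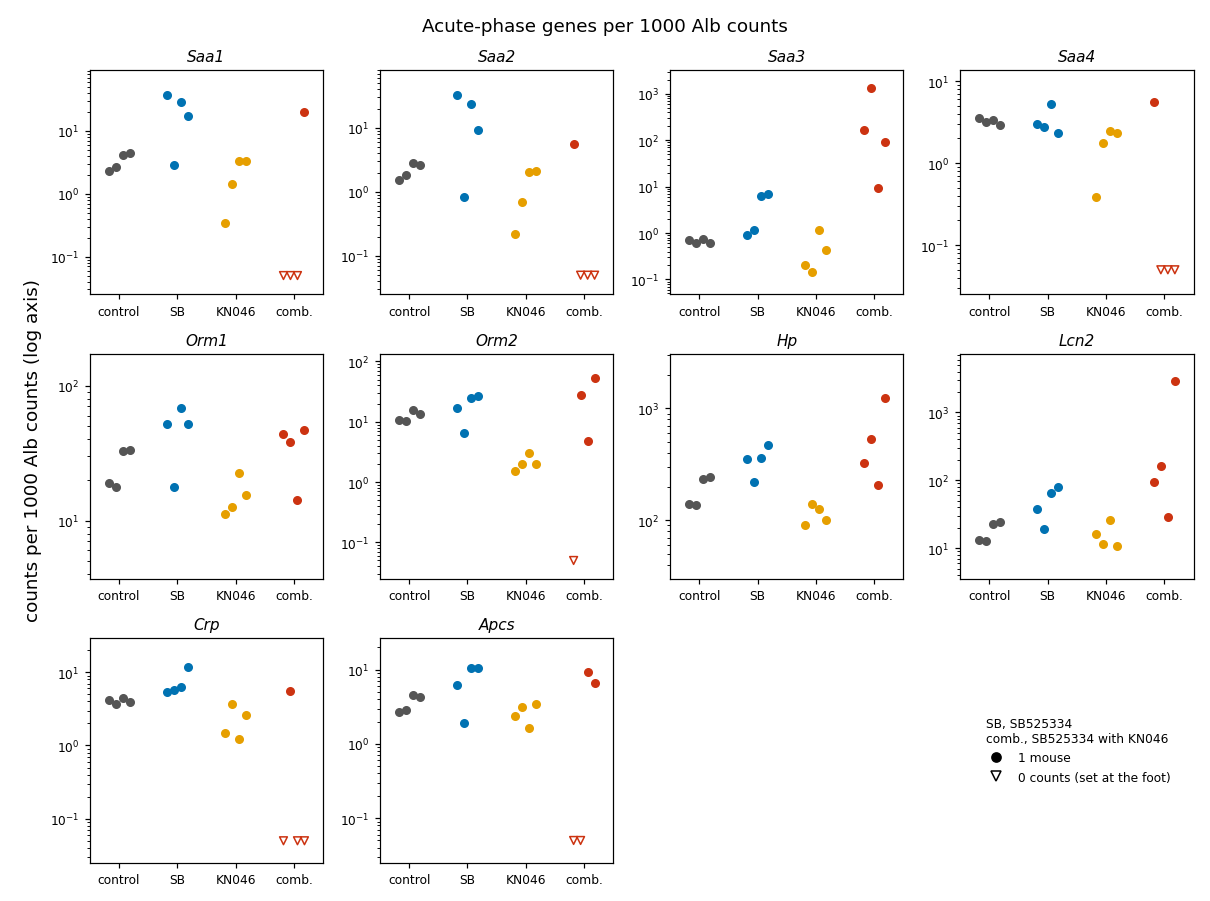
Counts of each acute-phase gene per 1000 Alb counts in each mouse, on a log axis, with open triangles for mice with 0 counts. Saa3 is at 0.596 to 0.756 in the control mice and at 9.43 to 1328 in the combination mice, while Orm2 lies at 1.51 to 3.06 with KN046, below all control mice.

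With the combination, Saa3 and Lcn2 departed most from Alb. Saa3 had 165, 1328, 9.43 and 93.3 counts per 1000 Alb counts, above every control mouse, and Lcn2 93.4, 164, 28.3 and 2920, also above, as were 95.8% of all genes. Their log2 values relative to Alb were 9.21 (standard error 0.80, adjusted p = 1.85e-30) and 5.47 (0.66, adjusted p = 1.28e-16), both with an exact permutation p of 0.0286. Their size rested in part on single mice: without combination mouse 2 the value of Saa3 was 7.03, and without combination mouse 4 that of Lcn2 was 2.40, and both were still called. The combination mice had only 150 to 212 Alb counts each, which limits every ratio in that group. Hp had 324, 530, 207.5 and 1227 counts per 1000 Alb counts, against 138 to 245 in the control group, and was called higher (1.60, standard error 0.55, adjusted p = 0.00414), a call that was lost without combination mouse 4 (0.91, adjusted p = 0.130). With the summed counts of the other 14 hepatocyte genes in place of Alb, Hp turned from a higher to a lower call (-1.16, adjusted p = 0.00204), Orm1 went to -2.15 and was called lower, as were Saa1, Saa2, Saa4, Orm2, Crp and Apcs, and Saa3 (6.80) and Lcn2 (2.35) were still called higher. Trf made up most of that sum in the combination, with 65.9 ± 10.9 CPM. It had 1018 to 1722 counts per combination mouse, where Apoa1, the next gene, had 22 to 36. These values are therefore close to a comparison with Trf alone, not with 14 genes. With Ttr in place of Alb, again 3 genes were called higher. The share of all genes called in these fits with another reference is not given here.

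With KN046, Orm2 fell against Alb as well. It had 1.51, 2.01, 3.06 and 2.02 counts per 1000 Alb counts, against 10.5, 10.1, 15.6 and 13.65 in the control mice, without overlap. Its log2 value relative to Alb was -2.54 (standard error 0.62, adjusted p = 0.0224), the only call among the 10 genes, where 0.229% of all genes were called lower and 0.0358% higher. The call was lost whichever of the 8 mice was left out, with adjusted p up to 0.253, at log2 values between -2.75 and -2.40. Saa4 was also lower in every KN046 mouse (0.390 to 2.46 per 1000 Alb counts, against 2.94 to 3.50), and the mice did not overlap in this direction for 6.05% of all genes. Saa4 was not called (-0.89, standard error 0.62, adjusted p = 1). Both had the smallest exact permutation p of 0.0286, which adjusted over all genes was 0.390.

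Lists of other genes of the response were read in the same fit. Of 15 further positive acute-phase genes tested, 13 were called lower with SB525334 and 13 in the combination group, where 9.22% and 9.74% of all genes were. The median log2 fold changes of the 15 were -3.16 for SB525334, -0.14 for KN046 and -8.48 for the combination. Hpx, the heme-binding hemopexin, went from 1681 ± 508 CPM in the control group to 165 ± 69.8 with SB525334 and 1.29 ± 0.442 with the combination (log2 fold change -10.36, adjusted p = 2.59e-10). Fgl1, a hepatocyte fibrinogen-like protein, went from 158 ± 46.5 to 17.6 ± 8.04 and 0.277 ± 0.101 CPM (-9.14, adjusted p = 7.33e-10). C3, the central complement protein, which many cell types make, fell by 3.05 with SB525334 and by 3.93 with the combination on the log2 scale, from 2014 ± 77.2 CPM. The 7 negative acute-phase genes, Alb among them, were all called lower in both of these comparisons, with medians of -3.43 and -9.75. Among them were Trf (transferrin, -3.04 and -6.19), Ahsg (fetuin A, -3.02 and -9.67) and Ttr (transthyretin, -3.43 and -10.03). Serpina6, which codes for the cortisol-binding globulin, was the only one called with KN046 (-2.48, adjusted p = 0.0239), at 17.5 ± 3.11 CPM in the control group and 3.11 ± 1.84 with KN046.

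Of 13 cytokine and receptor genes tested, 2 were called lower with SB525334 (9.22% of all genes), 1 with KN046 (2.4%) and 1 in the combination group (9.74%). The combination against KN046 had 1 lower and 2 higher, where 14.5% and 9.89% of all genes were. The interaction had 3 higher, where 1.73% of all genes were. Il6st, which codes for the shared gp130 receptor chain, had log2 fold changes of -0.10 for SB525334, -0.25 for KN046 and -0.23 for the combination, and Tnfrsf1a of -0.08, -0.03 and 0.04, and neither was called. Il1a (-1.90, adjusted p = 0.0456) and Lifr, the leukemia inhibitory factor receptor (-1.48, adjusted p = 1.42e-05), were lower with SB525334, and Lifr also with the combination (-2.06, adjusted p = 1.72e-07). Il1b was lower with KN046 (-2.19, adjusted p = 0.0458), at 20.2 ± 6.72 CPM in the control group and 4.40 ± 3.38. It was higher in the combination than with KN046 (1.99, adjusted p = 0.0192), as was Il1rn, the interleukin-1 receptor antagonist (1.06, adjusted p = 0.0179). The interaction was positive for Il1b (3.40, adjusted p = 0.0203), Tnf (2.31, adjusted p = 0.0491) and Il1rn (1.65, adjusted p = 0.0336), opposite in sign to that of the acute-phase genes.

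Among 14 signal mediators, 3 were called lower with SB525334 (9.22% of all genes) and 3 in the combination group (9.74%). Hnf4a, a transcription factor of hepatocytes, had 80.0 ± 2.22 CPM in the control mice, 5.32 ± 2.81 with SB525334 (-3.91, adjusted p = 1.29e-06) and 0.0273 ± 0.0546 with the combination. Cebpb was lower with SB525334 (-0.61, adjusted p = 0.0245) and Cebpa with the combination (-0.90, adjusted p = 0.00184). Jak1 had log2 fold changes of -0.09, 0.12 and 0.03, and Nfkb1 of 0.04, -0.15 and 0.02, with no call. Of 13 receptors and binding partners of the acute-phase proteins, 4 were called lower with SB525334 (9.22% of all genes), 1 with KN046 (2.4%) and 2 in the combination group (9.74%). In the combination against KN046, 4 were called higher and 2 lower (9.89% and 14.5% of all genes). The hemoglobin-haptoglobin receptor Cd163 was lower with SB525334 (-2.91, adjusted p = 7.42e-04) and in the combination group (-3.76, adjusted p = 8.52e-05), and so was the formyl peptide receptor Fpr1 (-2.51 and -2.58). Tlr2 was lower with KN046 (-0.995, adjusted p = 0.0441), and Cd36 was higher in the combination than with SB525334 (1.56, adjusted p = 0.0047). Lrp1 and Scarb1, the most abundant of the list, were not called in any of the comparisons with control.

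Each acute-phase gene was also matched to the genes whose log2(CPM + 1) followed it most closely over the 16 mice. The nearest was Ambp for Hp (r = 0.994), Fgl1 for Orm1 (0.993), Hsd17b2 for Crp (0.995), Ces3a for Saa4 (0.988), Cpb2 for Apcs (0.986) and Fam25a for Orm2 (0.969). Saa1 and Saa2 had the same 3 nearest genes, Pde1a, Itih4 and Serpina7, with r of 0.871 to 0.924. For Lcn2 the nearest was Wfdc21 (0.956), with 0.826 within groups, followed by Trf and Steap4. Saa3 had other neighbours, with Hspb1 (0.827), Hba-a2 (0.786) and 9130008F23Rik (0.784) nearest, and with r of 0.376 to 0.550 to the other acute-phase genes and Alb. Between Alb and the other 9 acute-phase genes r was 0.821 to 0.985. The mice of a group share their treatment, so these values describe the 4 groups as much as single mice. The erythroid markers, which include Hba-a2, summed to 319 CPM in KN046 mouse 3 and to 207 in combination mouse 2, the mice with the most Saa3, but also to 253 CPM in combination mouse 4, where Saa3 was at 0.66 CPM. Their part in the Saa3 values was not tested.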

How the data were processed

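Total RNA of tumor tissue from 16 mice (4 per group) was sequenced as mRNA libraries. The authors used cutadapt 2.7 for trimming, HISAT2 2.2.1 for alignment (GRCm39) and HTSeq 2.0.4 for counting, and deposited raw counts, used here, and DESeq2-normalized values (1.38.3), not used here. Their settings for strand and multiply aligned reads are not given in the sources used here, which leaves values of overlapping and paralogous genes uncertain. Of 21959 identifiers, 21770 matched GENCODE M39. Raw counts were tested in R 4.3.3 with edgeR 4.0.16 (TMM, filterByExpr with a minimum count of 10, 1 quasi-likelihood fit over the 4 groups, Benjamini-Hochberg adjustment over 13968 genes, threshold 0.05). CPM are TMM-scaled. The biological coefficient of variation was 20.1%. A second fit over 13967 genes used each mouse's Alb count as library size. Exact permutation tests used log2 ratios with 0.5 added to both counts, and took the similar control mice as separate samples. Ratios for groups with 1 to 3 counts have exact 95% intervals, which cover counting error only. Correlations used log2(CPM + 1). The scripts were tested on simulated data.

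Alternatives were DESeq2 1.42.0 (also with the study's fold above 2 and unadjusted p under 0.05), its size factors, library totals, no filter, a mean of at least 1 CPM, only the groups compared, a replicate block, merged control pairs, Ttr or the other hepatocyte genes in place of Alb, and each mouse left out. Named were the 10 genes and Alb, from each list the 2 genes of highest mean CPM and the 2 of lowest adjusted p in the combination, genes called where 3 or fewer of a list were, and the 3 genes of highest correlation with each of the 10. S100a9, Ngp and Ltf were named after their values were seen. One gene that this rule names is not reported here. The members and lists were chosen with earlier results of these data known. Replicate labels name separate samples, and nothing says that each is a separate tumor, so p-values measure the spread between samples.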

Additional observations from a re-analysis of the deposited data

Results flagged for a closer look

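In groups of 4 mice, a mouse was picked out where its gap to the nearest of the others passed Dixon's 95% limit. For normally distributed values this happens in about 1 of 20 groups. Of 84 groups examined, 14 had such a mouse, where that rate gives 4.2. The 2 numbers cannot be weighed against each other. The same mice enter as CPM and per 1000 Alb counts, and a group with counts in 1 mouse only always passes the limit. Most rest on 1 to 3 counts: Saa1 in combination mouse 4 (0.141 CPM, 20 per 1000 Alb counts), Saa2 and Saa4 in combination mouse 1 (each 0.0513 CPM and 5.49 per 1000 Alb counts) and Crp in combination mouse 2 (0.0552 CPM, 5.46 per 1000 Alb counts). The others rest on many counts. Saa3 stood at 13.4 CPM and 1328 per 1000 Alb counts in combination mouse 2, and Lcn2 at 20.65 CPM and 2920 per 1000 Alb counts in combination mouse 4. Lcn2 was also far above its group in KN046 mouse 3, at 285.5 CPM. Crp in SB525334 mouse 4 had 11.7 counts per 1000 Alb counts, with 35 counts of Crp.

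The log2 effect of SB525334 differed between mice with and without KN046, by edgeR's test of the interaction, for 7 genes. The interaction was -4.41 for Hp (adjusted p = 2.53e-04), -5.45 for Orm1 (7.33e-04), -5.62 for Apcs (7.51e-04), -6.60 for Crp (5.51e-04), -5.82 for Saa4 (0.0314), -7.40 for Saa1 (0.0131) and -8.20 for Saa2 (0.0244). The last 3, Crp and Apcs have 1 to 3 counts in the combination, so the size of their values depends on the prior count.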

How the results depend on the processing

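The shares of all genes called in the alternatives are not given here, so the counts below cannot be set against them. Counts of called genes stayed within 1.5 times their main value in all alternatives except these. With KN046, 0 genes were called with control pairs merged (edgeR; 1 at an unadjusted p under 0.05, and 1 gene called in DESeq2 on the unmerged samples), and leaving out single mice gave 1 to 2. The interaction gave 4 genes with control pairs merged and 5 to 8 with single mice left out. Relative to Alb, leaving out single mice gave 4 to 7 genes with SB525334 (7 without mouse 2) and 2 to 3 with the combination, which gave 10 (8 lower, 2 higher) with the other hepatocyte genes. Relative to Alb, KN046 gave 0 with Ttr, with pairs merged and without any single mouse (0 to 0), with 1 to 2 at an unadjusted p under 0.05. Of the other alternatives for single genes, 1370 kept direction and call, 34 lost and 21 gained a call, and 34 turned sign, none of those called before but Hp.

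Without single mice, some log2 values turned sign. Saa3 ran from -1.50 to 0.10 with KN046, from -2.58 to 1.02 in the combination against KN046, from -0.85 to 2.21 against SB525334 and from -0.62 to 2.98 in the interaction, and Lcn2 from -0.69 to 0.10 with KN046. Relative to Alb, Saa4 ran from -0.26 to 0.16 with SB525334, and with the combination Saa1 ran from -11.26 to 0.83, Orm2 from -0.25 to 1.13 and Apcs from -0.88 to 0.59, each with the lowest value without combination mouse 4 or, for Apcs, mouse 3. With the other hepatocyte genes in place of Alb, SB525334 gave -0.73 for Saa4, -0.35 for Orm2 and -0.11 for Crp, and KN046 gave 0.26 for Lcn2. The combination, where that reference was mostly Trf, gave -2.35 for Saa1, -2.15 for Orm1, -2.01 for Orm2, -1.16 for Hp and -2.41 for Apcs. With Ttr, SB525334 gave -0.51 for Saa4 and -0.019 for Orm2, and KN046 gave 0.045 for Saa3, 0.37 for Lcn2 and 0.017 for Apcs. The causes were not tested.

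Same-numbered mice did not deviate together in every pair (correlations from -0.483 to 0.527). A pairing by number was not used in the main fit, and these values cannot exclude one. With the replicate block the counts of calls were 7, 1 and 9 against control, and 6 in the interaction, where Saa4 lost its call (-5.63, adjusted p = 0.0529), and relative to Alb Saa4 turned to -0.013 with SB525334 and Lcn2 to 0.016 with KN046. Saa4 in the combination against SB525334 had no value with only those groups, since it failed the filter. With 150 to 212 Alb counts per combination mouse, ratios there are coarse.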
